A study of Mus musculus with 5 samples.

Results

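The immediate early transcription factors described here were Fos, Fosb, Fosl2, Jun, Junb, Jund, Egr1, Atf3 and Ier2, 9 genes listed by symbol, of 30099 gene symbols in the matrices of the study. No measured value entered the choice rule. The data were single-cell RNA counts of tdTomato-positive cells sorted from femur marrow, in 5 libraries, 1 per group. The comparison asked whether the levels of these genes followed the library, and with it the dissociation each library went through, or the cell type. Every mouse carried Lepr-cre and the R26R-tdTomato reporter, in which Cre driven from the leptin receptor gene switches on a red fluorescent protein in marrow stromal cells and their descendants, so the label marks a lineage and not current Lepr expression. The control group was uninjured and 15 weeks old. The naive group had bone marrow ablation, a surgery that clears the marrow cavity, at 13 weeks and was taken at 15 weeks. The exhausted group had that surgery at 9 and at 13 weeks and was taken at 15 weeks. The aged group was uninjured at 18 months, and the aged-injury group was 18 months old and taken 1 week after 1 ablation. Bones were cut up and dissociated with enzymes before the sort, and the labels name no number of animals, batch or date and do not say which groups were dissociated together. Group, dissociation and library therefore cannot be told apart between libraries, whereas the cell types of 1 library went through the same dissociation. With 1 library per group there is no replicate check, no test between groups and no p-value, and the intervals given cover counting error only.

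Immediate early genes are switched on within minutes of a stimulus from factors already present in the cell, without new protein synthesis, and their mRNAs are short-lived. FOS and JUN family proteins pair through leucine zippers to form AP-1, which binds DNA and changes the expression of later genes; FOS-type proteins need a JUN-type partner. EGR1 is a zinc finger factor induced by serum, growth factors and stretch, ATF3 is a stress-induced factor of the ATF/CREB family, and IER2 is a small nuclear protein induced with the same kinetics. The warm enzymatic digestion that frees cells from solid tissue is known to induce this gene group in many cell types, as are wounding and growth factors.

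RefSeq promoter sequences of build GRCm38.p6 were used for 7 of the 9 genes. Egr1 and Ier2 had no window here and were not searched, so nothing below on motifs covers them. The 250 bases before the annotated start are printed 5′ to 3′ for the 4 genes whose window holds TGACG, the core of the cyclic AMP response element bound by CREB and ATF proteins, and for Fosl2, whose levels ordered the cell classes differently from Fos and whose window lacks the core. They were Fos at chr12:85473640-85473889 (plus strand), Fosb at chr7:19310046-19310295 (minus strand), Junb at chr8:84978749-84978998 (minus strand), Atf3 at chr1:191183334-191183583 (minus strand) and Fosl2 at chr5:32136222-32136471 (plus strand). Capitals mark TGACG, or CGTCA where it lies on the opposite strand.
Fos: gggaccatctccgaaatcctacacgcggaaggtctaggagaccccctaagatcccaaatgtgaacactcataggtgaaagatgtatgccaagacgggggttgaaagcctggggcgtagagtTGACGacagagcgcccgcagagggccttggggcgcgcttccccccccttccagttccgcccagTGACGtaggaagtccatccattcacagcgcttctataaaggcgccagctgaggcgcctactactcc
Fosb: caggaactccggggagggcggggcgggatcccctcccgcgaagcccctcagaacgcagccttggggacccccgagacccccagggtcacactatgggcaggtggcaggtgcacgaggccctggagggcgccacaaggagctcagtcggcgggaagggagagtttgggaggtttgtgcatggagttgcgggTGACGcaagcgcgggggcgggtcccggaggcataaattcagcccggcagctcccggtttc
Junb: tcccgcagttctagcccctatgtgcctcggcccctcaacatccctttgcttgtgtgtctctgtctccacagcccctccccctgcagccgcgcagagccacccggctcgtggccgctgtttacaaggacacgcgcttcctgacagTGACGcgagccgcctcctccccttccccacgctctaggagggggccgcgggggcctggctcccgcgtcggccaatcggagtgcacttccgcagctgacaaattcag
Atf3: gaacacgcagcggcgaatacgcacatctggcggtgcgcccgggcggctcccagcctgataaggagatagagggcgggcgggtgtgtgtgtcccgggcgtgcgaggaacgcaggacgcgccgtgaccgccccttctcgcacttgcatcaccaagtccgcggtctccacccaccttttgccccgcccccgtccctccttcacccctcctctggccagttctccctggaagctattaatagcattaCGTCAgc
Fosl2: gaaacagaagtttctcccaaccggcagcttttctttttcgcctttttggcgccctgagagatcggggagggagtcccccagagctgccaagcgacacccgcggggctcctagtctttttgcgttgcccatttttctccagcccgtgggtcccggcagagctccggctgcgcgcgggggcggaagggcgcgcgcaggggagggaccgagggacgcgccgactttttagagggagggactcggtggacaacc
In Fos the core began 129 and 66 bases before the start, in Fosb 60, in Junb 106 and in Atf3, on the opposite strand, 7. The windows of Jun and Jund also lack the core, yet both genes were higher in stroma than in endothelium in all 5 libraries. Atf3 has the core and, like Fosl2, was higher in endothelium in all 5. A link between the core and the order of classes was not tested. TGACG on either strand was found in 17.8% of 32841 RefSeq windows of this length. The full element TGACGTCA (1.55% of windows), the AP-1 site TGANTCA (6.75%) and the CArG box bound by serum response factor (1.47%) were in none of the 7 windows, which says only that these letters are not in these bases. A match is a description of the sequence and not evidence of binding.

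After filtering, 47829 of 57968 cells were kept, 70.1 to 93.4% of a library, with median UMI (unique molecular identifier) counts of 6671 to 9512 per cell. Pairs of libraries shared 21 barcode labels. Clusters were assigned to 3 broad classes from marker genes. Stroma held 38752 cells in 17 clusters, endothelium 1502 cells in 2 and blood 7098 cells in 12. Stroma had 18819 to 35223 UMIs per 1000000 UMIs (CPM) of Cxcl12, the chemokine that marks reticular cells. Endothelium had 850.4 to 1999.5 CPM of Pecam1, an endothelial adhesion gene, and blood had 169 to 605 CPM of Ptprc, the pan-leukocyte gene. The tdTomato transcript stood at 66.4 to 88.3 CPM in stroma, 61.9 to 83.8 CPM in endothelium and 2.85 to 17.8 CPM in blood, so the ranges of stroma and endothelium overlapped and blood was lower. The classes with the fewest cells were endothelium in control, aged and exhausted, with 73, 88 and 196 cells, and blood in aged-injury, with 298. Aged-injury blood also held the most stromal RNA, given with the levels below.

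Most members stood far higher in stroma and endothelium than in the blood cells of the same library. Of the 9, 7 were above blood in both classes in all 5 libraries, and the ratio intervals excluded 1 each time. Of the 9948 genes with at least 20 CPM in any class and library, 15.3% did the same. The exceptions were Fosl2 and Atf3, which were above blood in endothelium in every library and in stroma only in some. Fosb, Jun and Jund were higher in stroma than in endothelium in all 5 libraries, as were 11.6% of those genes, and Fosl2, Atf3 and Ier2 were higher in endothelium in all 5, as were 16.5%. The levels below are CPM, the UMIs of the gene scaled to the total UMIs of the class. Their exact Poisson 95% intervals reached at most 3.46% of the level to either side in stroma, 16.3% in endothelium and 13.3% in blood.

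Fos encodes the first-described FOS subunit of AP-1. In stroma it stood at 8612 CPM in control, 3493 in naive and 6165 in exhausted, and 7377 in aged and 4667 in aged-injury. In endothelium it stood at 4338 CPM in control, 3738 in naive and 4593 in exhausted, and 6468 in aged and 4275 in aged-injury. In blood it stood at 1782 CPM in control, 1358 in naive and 1869 in exhausted, and 1262 in aged and 1250.2 in aged-injury. Every stromal and every endothelial value lay above every blood value. The stromal level was 2.57- to 5.85-fold that of blood in the same library. Stroma was above endothelium in 4 libraries, by up to 1.99-fold, and below it in naive, with a ratio of 0.934.

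Fosb, the FOS family member whose truncated form accumulates on long stimulation, was higher in stroma than in both other classes in each library. Its stromal levels were 6920.2 CPM in control, 4030.2 in naive and 6246 in exhausted, and 7446 in aged and 5462 in aged-injury. Its endothelial levels were 3586 CPM in control, 2415 in naive and 2790.1 in exhausted, and 5629 in aged and 3409.6 in aged-injury. Its blood levels were 689.6 CPM in control, 663 in naive and 849 in exhausted, and 617 in aged and 1481 in aged-injury. Stroma was above endothelium in all 5 libraries, by 1.32- to 2.24-fold, and above blood by 3.69- to 12.1-fold. The aged-injury value was the highest of the blood values and the other 4 lay close together.

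Fosl2, which encodes FRA2, a slower member of the family with roles in bone and cartilage cells, had another order of classes. Its stromal levels were 163 CPM in control, 189 in naive and 176 in exhausted, and 185 in aged and 217 in aged-injury. In endothelium it stood at 715 CPM in control, 655 in naive and 465 in exhausted, and 593 in aged and 533 in aged-injury. In blood it stood at 204 CPM in control, 187 in naive and 221 in exhausted, and 188 in aged and 83.6 in aged-injury. Endothelium was above stroma by 2.46- to 4.39-fold in all 5 libraries, and no endothelial value overlapped the other classes. Stroma and blood overlapped. Fosl2 was also the one member whose lowest stromal level was in control rather than naive.

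Jun encodes the JUN subunit that pairs with FOS. Its stromal levels were 3629.6 CPM in control, 2095 in naive and 3852 in exhausted, and 4190.3 in aged and 2579 in aged-injury. In endothelium they were 2354 CPM in control, 1890.3 in naive and 2143 in exhausted, and 3635 in aged and 1879 in aged-injury. In blood they were 689 CPM in control, 667 in naive and 771 in exhausted, and 733 in aged and 742 in aged-injury. The blood values spanned only 1.16-fold from lowest to highest, against 2.00-fold in stroma. Stroma was above endothelium in all 5 libraries, by 1.11- to 1.80-fold.

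Junb encodes a JUN family member that can oppose JUN at some targets and is needed for normal myeloid growth control. In stroma it stood at 1399 CPM in control, 801 in naive and 1170.0 in exhausted, and 1464 in aged and 807 in aged-injury. Endothelium gave 1478 CPM in control, 1082 in naive and 1173 in exhausted, and 1926 in aged and 859 in aged-injury. Blood gave 436 CPM in control, 364 in naive and 521 in exhausted, and 364 in aged and 305 in aged-injury. Endothelium was above stroma in naive, aged and aged-injury, and in control and exhausted the interval of the ratio held 1. Both classes exceeded blood in each library, stroma by 2.20- to 4.02-fold.

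Jund is the JUN gene that is transcribed in resting cells and depends least on stimulation. Its stromal levels were 4228 CPM in control, 2827 in naive and 4065 in exhausted, and 4693 in aged and 3044 in aged-injury. Its endothelial levels were 3500.1 CPM in control, 2524 in naive and 2798 in exhausted, and 4293 in aged and 2543 in aged-injury. Its blood levels were 1329 CPM in control, 1548 in naive and 1618 in exhausted, and 1603 in aged and 1270.2 in aged-injury. The step from blood to stroma was smaller than for Jun in every library, at 1.83- to 3.18-fold. Stroma was above endothelium in all 5 libraries, by 1.09- to 1.45-fold.

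Egr1 had the widest step between stroma and blood of the 9 genes in 4 of the 5 libraries, all but aged-injury. In stroma it stood at 4703 CPM in control, 1954 in naive and 3025 in exhausted, and 4381 in aged and 2660.1 in aged-injury. In endothelium it stood at 2836 CPM in control, 1958 in naive and 1833 in exhausted, and 3617 in aged and 1623 in aged-injury. In blood it stood at 378 CPM in control, 195 in naive and 270.0 in exhausted, and 270.3 in aged and 805 in aged-injury. Stroma was 3.31- to 16.2-fold above blood, with the smallest step in aged-injury, where the blood level was highest. In naive the stromal and endothelial levels did not differ beyond counting error, and in the other 4 libraries stroma was higher.

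Atf3 was lowest in blood or stroma and highest in endothelium. Its stromal levels were 214 CPM in control, 98.8 in naive and 178 in exhausted, and 201 in aged and 116 in aged-injury. Its endothelial levels were 729 CPM in control, 576 in naive and 551 in exhausted, and 683 in aged and 296 in aged-injury. Its blood levels were 111 CPM in control, 155 in naive and 245 in exhausted, and 95.4 in aged and 56.3 in aged-injury. Endothelium exceeded stroma by 2.56- to 5.83-fold in all 5 libraries. Blood exceeded stroma in naive and exhausted and lay below it in control, aged and aged-injury.

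Ier2 encodes the small nuclear protein named above. Its stromal levels were 180.2 CPM in control, 122 in naive and 169 in exhausted, and 163 in aged and 183 in aged-injury. Its endothelial levels were 225 CPM in control, 219 in naive and 192 in exhausted, and 219 in aged and 211 in aged-injury. Its blood levels were 126 CPM in control, 106 in naive and 123 in exhausted, and 114 in aged and 102 in aged-injury. Endothelium exceeded stroma in all 5 libraries, by 1.14- to 1.80-fold, and stroma exceeded blood by 1.15- to 1.79-fold. In endothelium and in blood no neighbouring libraries in the order of levels differed beyond counting error.

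**Figure D1:**
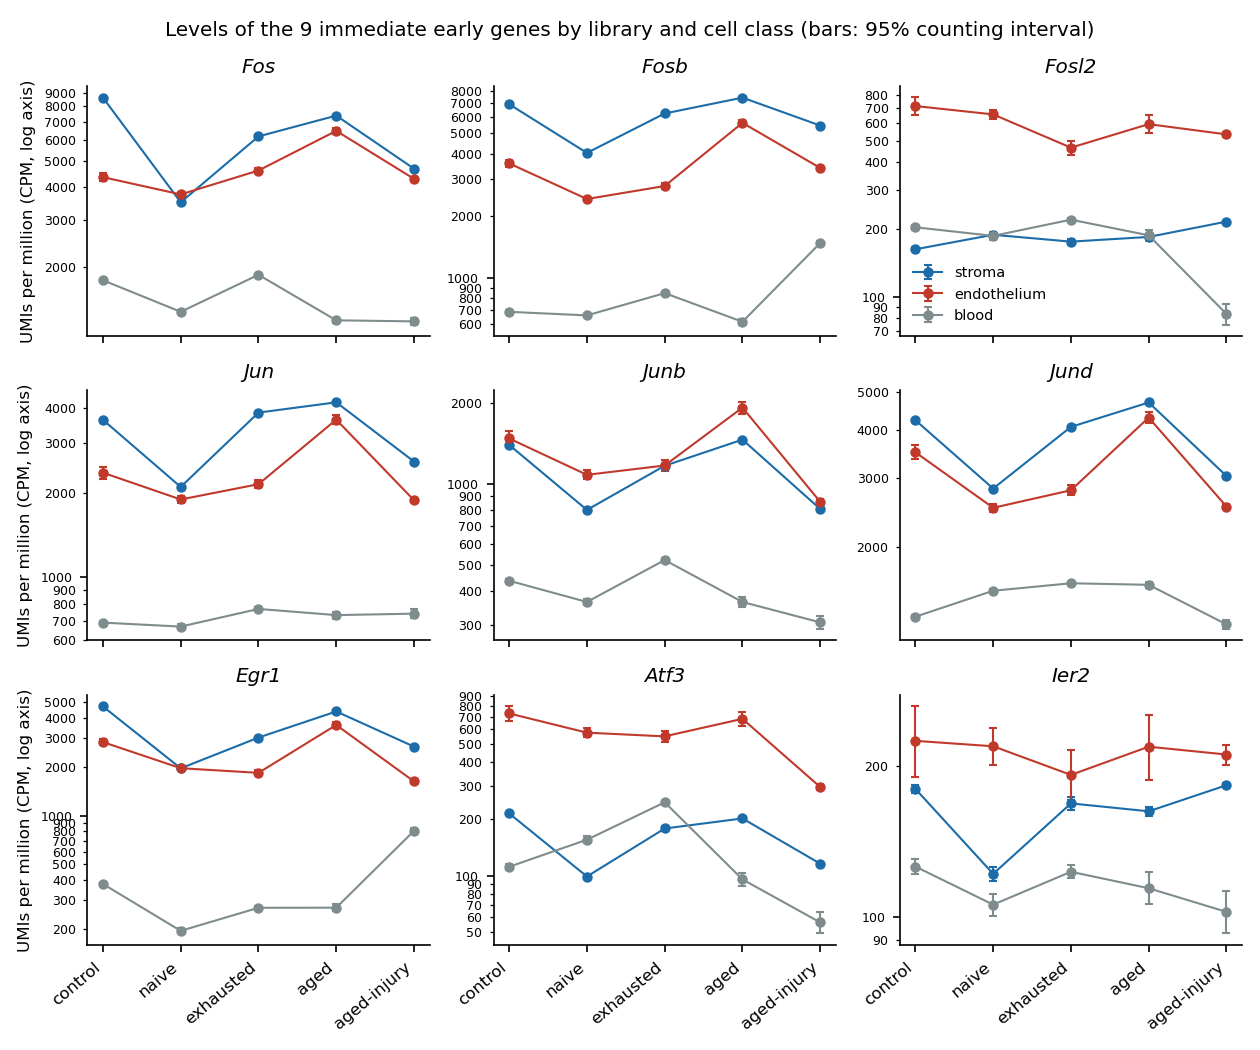
Level of each of the 9 genes in CPM of the class (log axis), with 1 point per library and class and exact Poisson 95% intervals as bars. Fosb, Jun and Jund are higher in stroma than in endothelium in all 5 libraries, and Fosl2, Atf3 and Ier2 are higher in endothelium in all 5.

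The order of the libraries was not the same in the 3 classes. In stroma, naive was the lowest library for 8 of the 9 genes, all but Fosl2, as it was for 11.9% of the 9948 genes. In endothelium, aged-injury was lowest for 4, naive for 3 and exhausted for 2, and aged was highest for 6. In blood, exhausted was highest for 6 and aged-injury lowest for 6. The shares of all genes with these orders in endothelium and blood are not given here, so the counts are not read as particular to the 9. Of 36 pairs of neighbouring libraries per class, the ratio interval held 1 in 4 in stroma, 11 in endothelium and 10 in blood, so the remaining neighbours differed beyond counting error, which says nothing of the spread between animals.

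A change of at least 2-fold with an interval that excludes 1, in genes with at least 20 CPM and 50 UMIs, was counted as a call that describes a pair of libraries. Between naive and control in stroma, 3 of the 9 genes were called, all lower in naive, against 5.07% of all genes measured called in either direction. Fos was lower by 2.47-fold (95% interval 2.45 to 2.48). Egr1 was lower by 2.41-fold (95% interval 2.39 to 2.43) and Atf3 by 2.17-fold (95% interval 2.09 to 2.25). Fosb, Jun, Junb, Jund and Ier2 were at 0.573 to 0.676 of control, short of a call, and Fosl2 was at 1.16. The median log2 ratio of the 9 was -0.79, beside 0.14 for all genes. Reticular-like cells made up 73.8% of stroma in control and 30.8% in naive. With reticular-like and preosteoblast-like cells given equal weight, none of the 3 calls remained, and Fos was at 0.586, Egr1 at 0.601 and Atf3 at 0.627 of control. That weighting leaves out the unnamed stromal cells, 13.4% of control and 33.7% of naive stroma, so it also changes which cells are compared.

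No member was called in the other 4 stromal comparisons. Exhausted stroma stood between naive and control for Fos, at 0.716 of control, and for Egr1, at 0.643, and close to control for Jun, at 1.06. Of all genes, 2.02% were called there. Against naive, exhausted stroma was higher for 8 genes, from 1.38 for Ier2 to 1.84 for Jun. Of all genes measured in this comparison, 64.2% were lower in exhausted, and 0.864% were called. Aged stroma was within 0.857 for Fos to 1.15 for Jun of control, with 0.877% of all genes called. Aged-injury stroma was at 0.552 of aged for Junb, 0.574 for Atf3, 0.607 for Egr1 and 0.633 for Fos, with 6.61% of all genes called. The naive and aged-injury libraries, 2 weeks and 1 week after an ablation, were thus both below the uninjured library of their age for 7 of the 9 genes, as they were for 20.8% of the 9948 genes. The exceptions were Fosl2, higher at both ages, and Ier2, lower in naive and higher in aged-injury.

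In endothelium, 3 genes were called between aged-injury and aged, beside 13.5% of all genes. Junb was at 0.446 (95% interval 0.422 to 0.471) of the aged level, Egr1 at 0.449 (95% interval 0.431 to 0.467) and Atf3 at 0.433 (95% interval 0.395 to 0.476). None was called in the other endothelial comparisons, for which 11.5% of all genes were called between naive and control, 10.1% between exhausted and control, 4.94% between exhausted and naive and 4.75% between aged and control. Between naive and control, endothelial Fos was at 0.862 (95% interval 0.827 to 0.899) where stromal Fos was at 0.406. Endothelial Atf3 was at 0.790 where stromal Atf3 was at 0.461. Aged endothelium was above control for Fosb, at 1.57, Jun, at 1.54, and Fos, at 1.49.

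In blood, no member was called between naive and control, where 2.19% of all genes were called, and Egr1 was closest, at 0.514 (95% interval 0.493 to 0.537). Between exhausted and control, Atf3 was the 1 gene called, higher at 2.20 (95% interval 2.11 to 2.30), with 4.18% of all genes called. Macrophage-like cells, a type with high Atf3, were 12.9% of blood in control and 22.7% in exhausted, and their own Atf3 was at 469 and 675 CPM. With blood types at equal weight the ratio was 1.39 and Atf3 was no longer called. None was called between exhausted and naive, with 0.725% of all genes, or between aged and control, with 2.71%. Between aged-injury and aged, 3 were called, beside 22.3% of all genes. Egr1 was higher at 2.98 (95% interval 2.81 to 3.16) and Fosb at 2.40 (95% interval 2.30 to 2.50), and Fosl2 was lower at 0.444 (95% interval 0.392 to 0.502). Cell type makeup differed in this last comparison. Erythroid-like cells were 53.4% of aged-injury blood and 28.1% of aged blood. With B lineage and erythroid-like cells, the types with enough cells in both libraries, given equal weight, Fosb was at 3.30 and Egr1 at 3.17 of aged, and Fosl2 turned to higher, at 3.64. Stromal RNA found in these types, measured as described below, equals 116% of the Fosl2 of aged-injury B lineage cells and 115% of that of erythroid-like cells. For Fosb it equals 85.5% and 121%, and for Egr1 79.3% and 100.1%. By this estimate most or all of these 3 genes' level there was matched by stromal RNA. A share above 100% exceeds the level measured, so the estimate is too high in those cases.

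**Figure D2:**
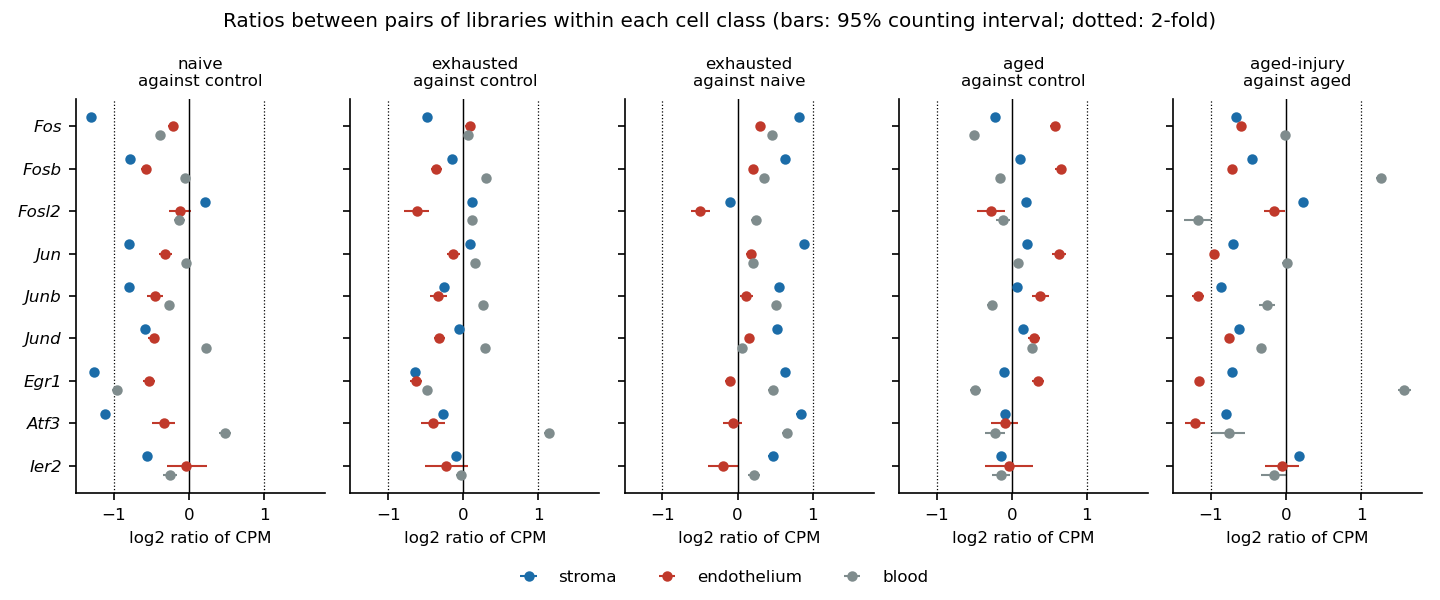
Ratio of levels between libraries for each of the 9 genes (log axis), in stroma, endothelium and blood, with exact conditional binomial 95% intervals that cover counting error only. In stroma, naive lies below control for 8 of the 9 genes, and in blood Egr1 and Fosb lie above 1 between aged-injury and aged.

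Stromal transcripts were found in the other classes. The median of the levels of Cxcl12, Lepr and Adipoq in endothelium, as a share of their stromal level in the same library, was 30.5% in control, 12.7 in naive and 4.27 in exhausted, and 35.5 in aged and 26.9 in aged-injury. In blood it was 6.23% in control, 4.05 in naive and 2.49 in exhausted, and 4.56 in aged and 26.2 in aged-injury. In aged-injury blood, that share of the stromal Fos level equals 97.8% of the Fos measured there. The same figure was 96.6% for Fosb, 91.1% for Jun and 86.6% for Egr1. Aged-injury blood thus carried the most stromal RNA of the 5 blood samples. In control endothelium the figure was 60.6% for Fos and 50.6% for Egr1. The figure is an estimate and can exceed the level measured. For Fos it was 162% in aged-injury B lineage cells and 253% in naive erythroid-like cells. Levels given after its subtraction share this error.

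Cells with at least 3 defining markers of another class at 2 or more UMIs were 7.90 to 66.8% of blood cells, highest in aged-injury, 12.2 to 64.7% of endothelial cells and at most 2.58% of stromal cells. Without them, the directions of Egr1 and Fosb between aged-injury and aged blood turned. Egr1 was at 82.6 CPM in aged-injury and 141 in aged, a ratio of 0.587. Fosb was at 278 and 349.8 CPM, a ratio of 0.796. Fosl2 stayed lower, at 0.265, and Fos was at 0.298 of aged. The order of the classes held, with 7 genes above blood in both other classes in all 5 libraries, and with Fosb, Jun and Jund higher in stroma than in endothelium and Fosl2 and Atf3 lower in all 5. Ier2 was no longer higher in endothelium in each library, but in 4. The endothelial calls between aged-injury and aged kept their direction, with Atf3 at 0.203, Egr1 at 0.365 and Junb at 0.452. Between naive and control endothelium the direction of 4 genes turned, with Fos at 1.54, Ier2 at 1.38, Jun at 1.06 and Fosb at 1.02. Jun and Fosb were thus close to 1. The step left out 30 of the 73 control endothelial cells, so these ratios rest on few cells, and their intervals are not given here. In stroma the same step left naive against control at 0.404 for Fos. With stromal RNA subtracted instead of these cells left out, blood Egr1 stayed higher in aged-injury, at 146 CPM against 73.8 in aged.

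The sum of squares of each gene's log2(CPM + 1) over the 15 combinations of class and library was split into a part between classes, a part between libraries and a remainder. The class part was the larger for all 9 genes. It ranged from 75.2% for Atf3 to 90.2% for Jun, and the library part from 3.23% for Fosl2 to 14.6% for Atf3. The medians of the 9 were 86.2% for class and 6.11% for library, beside 77.3% and 9.87% for all genes. Over all genes the library part was the larger in 12.7%. Leaving out each library in turn left the class part the larger for all 9. With the stromal RNA of the other classes subtracted, an alternative chosen after the data were seen, the class part was still the larger for all 9. The medians of the 9 were then 77.1% for class and 12.1% for library, beside 76.2% and 8.80% for all genes, so the class part was then close to that of all genes and the library part above it.

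Over stroma and endothelium alone, an alternative chosen after the data were seen, the library part was the larger for 5 of the 9 genes, beside 46.7% of all genes, a share close to the background. For Fos the class part was 15.6% and the library part 64.2%. For Junb they were 6.28% and 88.7%, for Jund 18.0% and 76.9%, for Egr1 22.7% and 68.7%, and for Jun 28.0% and 62.9%. In these 5 genes, then, the part between stroma and endothelium was smaller than the part between libraries. In each split the parts are not scaled by the number of classes, clusters or libraries. With more libraries than classes, this favours the library part here. For Fosl2 the class part was 95.4%, for Atf3 79.9%, for Ier2 60.5% and for Fosb 53.5%. Endothelium held stromal RNA, as given above. With that RNA subtracted, the library part was again the larger for 5 genes.

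Within stroma, 7 clusters had at least 50 cells in all 5 libraries. Split by cluster and library, the library part was the larger for 1 gene, Fosl2, at 40.4% against 25.8%, beside 8.12% of all genes. The cluster part of the other 8 ran from 53.3% for Atf3 to 88.1% for Jund. Over the 5 cell types present in every library, B lineage, endothelial, erythroid, preosteoblast and reticular-like cells, the cell type part was 84.1% for Egr1 to 94.8% for Jund, beside a median of 86.1% over all genes.

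**Figure D3:**
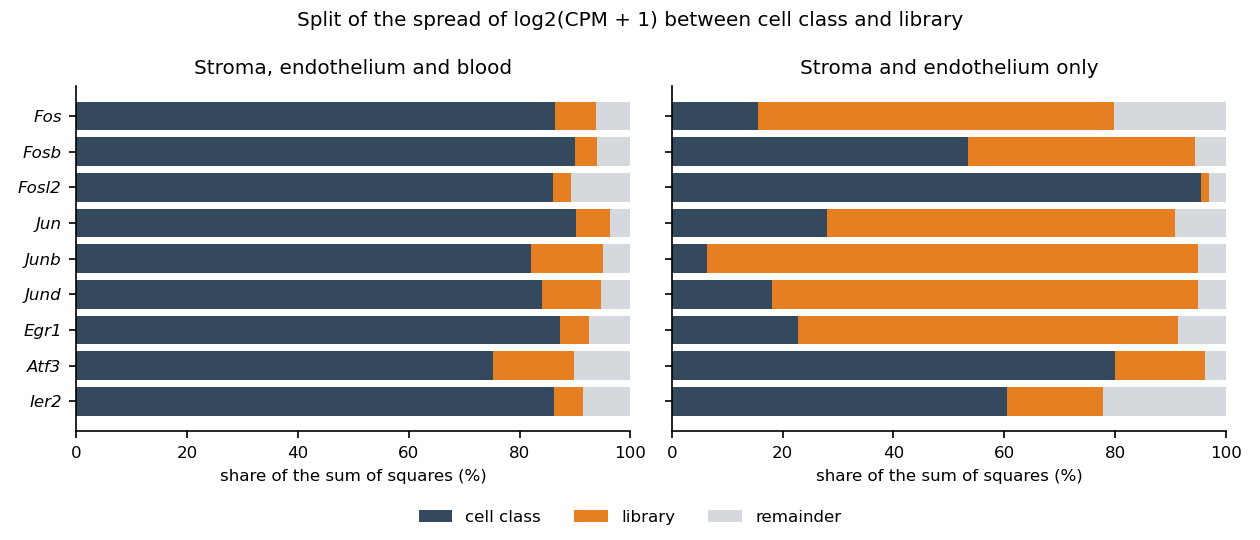
Share of each gene's sum of squares of log2(CPM + 1) that lies between classes, between libraries and in the remainder, over the 15 combinations of class and library and over stroma and endothelium alone. The class part is the larger for all 9 genes with blood included, and the library part for 5 of 9 without it.

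Cell types rebuilt from markers, with at least 50 cells in a library, showed which cells held the levels. Among the 11 types present in at least 3 libraries, erythroid-like cells had the lowest median of all 9 genes. Reticular-like cells had the highest median of Fosb, Jun, Jund and Egr1, and fibroblast-like cells that of Fos, Junb and Ier2. For each of these 7 genes the ranges of the first and second type over the libraries overlapped, so that order is not fixed by the data. Fos ranged over 5021 to 9532 CPM in reticular-like, 3639 to 5809 in preosteoblast-like, 2130.0 to 2929 in macrophage-like and 24.9 to 665 in erythroid-like cells. Neutrophil-like cells, at 2236 to 2888 CPM of Fos, were apart from granulocyte precursors, at 1127 to 1615.

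Fosl2 and Atf3 picked out other cells among the same 11 types. Fosl2 was highest in endothelial-like cells, at 465 to 715 CPM, and next in neutrophil-like cells, at 391 to 446, without overlap. Reticular-like cells had 161 to 235 CPM of it. Macrophage-like and endothelial-like cells shared the highest Atf3, at 469 to 675 and 296 to 729 CPM, and neutrophil-like cells had 19.3 to 64.6. Jund stood at 2116 to 2919 CPM in B lineage cells and 3817 to 5100.1 in reticular-like cells. Junb stood at 730.2 to 807 CPM in neutrophil-like cells, the narrow range of 4 libraries, against 209.7 to 439 in B lineage cells.

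The cluster with the most reticular-like cells was cluster 0 in control (3039 of 5267 cells) and cluster 2 in naive (543 of 1142), so a comparison within this type still compares different clusters. Within it, 1 gene was called between naive and control, Atf3 at 0.457 (95% interval 0.428 to 0.488), beside 2.6% of all genes. Fos was at 0.527 (95% interval 0.522 to 0.532) and Egr1 at 0.554 (95% interval 0.547 to 0.561) of control. Fosl2 was at 1.29, the only member above 1. No member was called in reticular-like cells in the other comparisons, in which 1.8% of all genes were called between exhausted and control, 0.474% between exhausted and naive, 0.882% between aged and control and 1.92% between aged-injury and aged. Between aged-injury and aged, reticular Fos was at 0.878 and Egr1 at 0.914, nearer to 1 than the 0.633 and 0.607 of all stroma. Reticular Fosb was at 1.04 where stromal Fosb was at 0.734, so its direction within the type was the opposite of that over all stroma. Reticular-like cells were 71.0% of aged and 40.02% of aged-injury stroma.

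Neutrophil-like cells had at least 50 cells in 4 libraries. Between naive and control, 2 genes were called lower, Fosb at 0.348 (95% interval 0.317 to 0.381) and Egr1 at 0.354 (95% interval 0.317 to 0.393), beside 4.38% of all genes. Fos was at 0.774 and Junb at 0.968. Atf3 was called higher in exhausted, at 2.28 of control and 3.35 of naive, beside 4.24% and 1.27% of all genes, from levels of 19.3 to 64.6 CPM. No member was called between aged and control, with 3.52% of all genes. Neutrophil-like cells held 8.97% of the stromal marker level in control and 4.01% in naive. These shares of the stromal level equal 88.4% of the Fosb in control and 66.2% in naive. With them subtracted, Fosb was at 89.4 CPM in control and 85.9 in naive. Egr1 was at 80.6 and 101 CPM, so neither gene kept its 2-fold difference. Atf3 was at 10.04, 15.9 and 61.2 CPM in control, naive and exhausted after the same step, still highest in exhausted. B lineage cells, another blood type, had ratios of 0.427 for Fosb and 1.06 for Jund between the same libraries. Stromal RNA equals 73.8% of their Fosb in control and 62.2% in naive, and with it subtracted Fosb was at 180.0 and 108 CPM, under a 2-fold difference.

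A pair of smaller stromal types could be compared between exhausted and naive. In pericyte or smooth muscle-like cells, 6 genes were called higher in exhausted, beside 6.86% of all genes, with Atf3 at 4.95 (95% interval 3.88 to 6.35) and Fosb at 3.34 (95% interval 3.07 to 3.65). In adipocyte-like cells 5 were called higher, beside 8.48%, with Fos at 4.43 (95% interval 4.14 to 4.74) and Egr1 at 3.31. Preosteoblast-like cells, on the way from stroma to bone, had Fos at 1.51 and Jun at 1.58 in that comparison. Their Fosb was at 0.968 and their Jund at 1.04 between naive and control. Fosl2 in pericyte or smooth muscle-like cells was at 0.922 of naive.

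The stromal clusters did not share 1 ratio between naive and control. In the reticular clusters 0 and 2 and the preosteoblast clusters 4 and 7, no member was called, beside 4.04%, 2.07%, 2.5% and 2.86% of all genes. There, Fos was at 0.658, 0.704, 0.755 and 0.662 of control, and Jund at 1.000, 0.995, 1.14 and 1.01. The median cell of these 4 clusters had 8804, 9856, 11189 and 13264 UMIs. In cluster 8, a reticular cluster led by Gas6 and with a median of 3258 UMIs, all 9 genes were called lower, beside 9.21%, from 0.135 for Atf3 to 0.421 for Fosl2. In the unnamed cluster 23, with a median of 3898 UMIs, 6 were called lower, beside 10.7%. In the unnamed cluster 1, with 3033 UMIs, and the preosteoblast cluster 11, with 4332, 4 each were called lower, beside 3.88% and 6.03%, and in the reticular cluster 3, with 7065, 3 were, beside 3.01%. The 4 clusters with at least 4 calls thus had lower medians than the other clusters named here. These medians are over the cells of all 5 libraries, and the depth of the naive and control cells within each cluster is not given. A link between depth and calls was not tested.

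The same ratio was therefore taken in bins of UMIs per cell, with the CPM of the 9 genes summed. In reticular-like cells naive stood, relative to control, at 0.322 in cells of at least 1000 and under 4000 UMIs, 0.552 up to 8000, 0.757 up to 16000 and 0.704 from 16000. Over all stroma the ratios in the same order were 0.306, 0.379, 0.601 and 0.604. In blood they were 1.21, 0.933, 0.864 and 0.916. In endothelium, the bins from 4000 to 8000 and from 8000 to 16000 UMIs had 0.714 and 0.750. Naive stroma was below control in each bin, and most so in the shallowest, whereas naive blood was above control in the shallowest bin and below it in the other 3. The share of stromal cells under 4000 UMIs was 16.8% in control, 28.1 in naive and 30.5 in exhausted, and 29.6 in aged and 16.4 in aged-injury. Their median mitochondrial share was 10.2% in control, 10.6 in naive and 10.9 in exhausted, and 12.5 in aged and 0.683 in aged-injury, so the shallow cells of aged-injury stroma had far fewer mitochondrial transcripts than those of the other libraries. In cells with at least 5000 UMIs, Fos in naive stroma was at 0.431, Egr1 at 0.440 and Atf3 at 0.496 of control, and these 3 were still the genes called.

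To see whether levels rested on few or many cells, each cell was thinned to 3000 UMIs and shallower cells were left out, 553 to 2548 stromal cells per library. The share of stromal cells with a Fos UMI was 89.2% in control, 63.8 in naive and 82.5 in exhausted, and 88.4 in aged and 81.1 in aged-injury. In blood the share was 64.0% in control, 51.3 in naive and 61.9 in exhausted, and 47.7 in aged and 46.4 in aged-injury. In erythroid-like cells, the type with the lowest Fos level, it was 31.2% in control, 4.12 in naive and 9.97 in exhausted, and 18.9 in aged and 32.7 in aged-injury, which serves as the background share. The median depths before thinning were 6472 to 9566 UMIs in stroma and 7539 to 9274 in erythroid-like cells, and the unthinned stromal shares ran from 65.6% to 91.2%. Most stromal cells of every library held Fos RNA, and the naive library held the fewest such cells. For Atf3 the stromal share was 28.0% in control, 13.6 in naive and 22.5 in exhausted, and 27.6 in aged and 19.6 in aged-injury. The endothelial share was 59.7% in control, 40.4 in naive and 48.5 in exhausted, and 39.7 in aged and 35.5 in aged-injury.

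Summed over the 9 genes, the median stromal cell held 82 UMIs of 3000 in control, 30.5 in naive and 66 in exhausted, and 84 in aged and 56 in aged-injury. The lower quartile was 32.75 in control and 4 in naive. The share of stromal cells with none of the 9 was 0.881% in control, 7.20 in naive and 3.54 in exhausted, and 0.984 in aged and 1.07 in aged-injury. Naive stroma was thus below control at the median and the lower quartile and had more cells with none of the 9. The upper part of the distribution is not given here, so a shift of the whole is not shown. In reticular-like cells the medians were 91 UMIs in control, 52 in naive and 83 in exhausted, and 92 in aged and 79 in aged-injury. In endothelium they were 38.5 UMIs in control, 27 in naive and 37 in exhausted, and 70.5 in aged and 37 in aged-injury. In blood they were 10 UMIs in control, 10 in naive and 13 in exhausted, and 9 in aged and 7 in aged-injury. Stroma of naive was still above the blood of every library at the median cell.

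Other genes of the pathway were taken from 5 lists. Between naive and control stroma, the other AP-1, ATF, CREB and MAF family genes had 1 lower and 1 higher of 18 measured, median log2 ratio -0.03. The gene called higher was Fosl1 at 37.6 against 13.7 CPM, which encodes FRA1. The other immediate early genes had 3 lower and 3 higher of 35 measured, median log2 ratio -0.18. Among them were Hes1 at 163 against 485 CPM, a Notch target, Ier3 at 36.3 against 81.0 CPM, Nr4a2 at 70.7 against 28.8 CPM, an orphan nuclear receptor, and Ptgs2 at 38.4 against 15.5 CPM, which encodes cyclooxygenase 2. The list thus had calls in both directions. Feedback genes, which damp the same signals, had 2 lower and 0 higher of 18 measured, median log2 ratio -0.73, with Dusp4 at 9.66 against 21.5 CPM, a MAP kinase phosphatase, and Spry1 at 314 against 633 CPM, an inhibitor of growth factor signalling. Upstream regulators such as serum response cofactors and MAP kinases had 0 lower and 0 higher of 13 measured, median log2 ratio 0.30. Heat shock genes, another group known to answer to handling of cells, had 3 lower and 0 higher of 14 measured, median log2 ratio -0.32, with Hspa1b at 52.1 against 137 CPM and Hspb1 at 56.0 against 142 CPM. All genes had a median of 0.14 in this comparison, with 1.53% called lower and 3.54% higher.

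Between aged-injury and aged stroma, where the median of all genes was 0.08, the AP-1, ATF, CREB and MAF list had 0 lower and 1 higher of 18 measured, median log2 ratio -0.12, and Fosl1 at 64.8 against 23.9 CPM was the gene called. The other immediate early genes had 0 lower and 2 higher of 35 measured, median log2 ratio 0.11, with Nr4a2 at 103 against 27.1 CPM and Ptgs2 at 71.0 against 22.3 CPM. Over all stroma, Fosl1, Nr4a2 and Ptgs2 were thus higher after ablation at both ages, while Fos and Egr1 were lower. The makeup of stroma differed between these libraries, as given above, and its part in the ratios of the list genes was not tested. Between aged-injury and aged stroma, 1.99% of all genes were called lower and 4.62% higher. The feedback genes had 2 lower and 0 higher of 18 measured, median log2 ratio -0.51, with Socs3 at 279 against 595 CPM, an inhibitor of cytokine signalling, and Nfkbia at 466 against 942 CPM, the NF-kappa-B inhibitor. The upstream regulators had 0 lower and 0 higher of 12 measured, median log2 ratio 0.12 and the heat shock genes 0 lower and 0 higher of 14 measured, median log2 ratio 0.14.

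In endothelium between naive and control, the AP-1, ATF, CREB and MAF list had 0 lower and 0 higher of 16 measured, median log2 ratio -0.13. The other immediate early genes had 4 lower and 3 higher of 34 measured, median log2 ratio -0.32, with Nr4a3 at 44.3 against 150.4 CPM, an orphan nuclear receptor, and Plk2 at 419 against 128 CPM, a polo-like kinase. The feedback list had 2 lower and 3 higher of 17 measured, median log2 ratio -0.18, with Socs3 at 351 against 767 CPM and Dusp6 at 365 against 131 CPM, a phosphatase of ERK. In this comparison 5.38% of all genes were called lower and 6.13% higher, with a median log2 ratio of 0.11. The upstream list had 0 lower and 1 higher of 13 measured, median log2 ratio 0.11 and the heat shock list 1 lower and 0 higher of 14 measured, median log2 ratio -0.19. Between aged-injury and aged endothelium, the feedback list had 5 lower and 0 higher of 17 measured, median log2 ratio -0.50, with Socs3 at 222 against 713 CPM and Nfkbiz at 290.4 against 705 CPM. In this comparison 6.2% of all genes were called lower and 7.26% higher, with a median log2 ratio of 0.14. The other immediate early genes had 7 lower and 1 higher of 35 measured, median log2 ratio -0.03, with Plk2 at 334 against 150.1 CPM. The remaining lists, in the order above, had 0 lower and 0 higher of 17 measured, median log2 ratio -0.02, then 0 lower and 1 higher of 13 measured, median log2 ratio 0.31, and 0 lower and 1 higher of 14 measured, median log2 ratio 0.33.

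In blood between naive and control, the AP-1, ATF, CREB and MAF list had 1 lower and 1 higher of 17 measured, median log2 ratio 0.09, with Maf at 372 against 165 CPM. The other immediate early genes had 1 lower and 1 higher of 33 measured, median log2 ratio -0.11 and the feedback list 1 lower and 0 higher of 16 measured, median log2 ratio 0.03, and neither of the other lists had a gene called. There 0.73% of all genes were called lower and 1.46% higher, with a median log2 ratio of 0.05. Between aged-injury and aged blood, the other immediate early genes had 4 lower and 7 higher of 32 measured, median log2 ratio -0.05, with Ccn1 at 476 against 117 CPM, which encodes a matrix protein, and Ptgs2 at 10.8 against 36.1 CPM. The feedback list had 2 lower and 3 higher of 16 measured, median log2 ratio -0.23, with Spry1 at 120.1 against 22.9 CPM and Dusp2 at 86.8 against 211 CPM. Heat shock genes had 0 lower and 6 higher of 14 measured, median log2 ratio 0.81, with Hspe1 at 316 against 64.6 CPM, a mitochondrial chaperonin. There 10% of all genes were called lower and 12.2% higher, with a median log2 ratio of 0.15. The AP-1, ATF, CREB and MAF list had 1 lower and 1 higher of 17 measured, median log2 ratio -0.12 and the upstream list 0 lower and 0 higher of 13 measured, median log2 ratio -0.20. The stromal RNA and the makeup of aged-injury blood given above apply to these genes too, and their part in these counts was not tested.

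Each gene was also set beside the mean of the 9 standardised profiles over the 15 combinations of class and library, which share libraries and depth. Of the members, Junb was nearest to that mean, with a Pearson r of 0.99, and Fosl2 farthest, with 0.62. Atf3 had 0.73 and the other 6 from 0.88 to 0.95. Among the 10 genes outside the list with the highest r were Pnrc1, Acy3, Rgs16, Peg13, Nfe2l1, Zfp36, Sertad1, Ids and Irf1, from 0.98 for Pnrc1 to 0.96 for Irf1. Zfp36, which encodes an mRNA decay factor, stood at 3182 CPM in control, 1712 in naive and 3105 in exhausted, and 3633 in aged and 2318 in aged-injury in stroma. Irf1, an interferon-regulated factor, stood at 681 CPM in control, 367 in naive and 584 in exhausted, and 886 in aged and 438 in aged-injury. In both, as in 8 of the 9 members, naive was the lowest stromal library. Both were picked for likeness over combinations that include naive stroma, so this shared low is not a separate result. Acy3 and Nfe2l1 were lowest in aged-injury stroma, at 14.6 and 120 CPM, against 18.8 and 130 in naive.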

How the data were processed

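The values deposited by the authors were whole-number UMI counts per gene and cell, with no normalisation, 1 matrix per library, from a BD Rhapsody HT Xpress instrument per the labels. The submitters' processing notes name Seurat 5.1 and build GRCm39, while aligner, counter and cell calling were not given in the sources used here. The 9 genes, the gene lists and the comparisons were chosen with earlier results of these data known.

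Libraries were joined by gene symbol. Kept cells had 500 or more genes, 1000 or more UMIs and under 25% mitochondrial UMIs. For clustering, counts were normalised to 10000 in each cell on a log scale, and the 2000 most variable genes, with 114 member and list genes kept out, were reduced to 30 principal components. The Leiden method at resolution 1.0 on 15 neighbours (scanpy 1.11.5, leidenalg 0.10.2, Python 3.11.15) gave 33 clusters, without integration. A cluster was named "-like" from at least 3 detected markers of a fixed list, and unnamed stromal clusters entered stroma only. Cluster 28, 370 cells with haemoglobin and reticular RNA together, and cluster 31, 107 unnamed cells, were left out of the classes after they had been seen. No doublet caller was run. Cells with markers of another class were left out as an alternative.

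UMIs were summed per class and library and given as CPM with exact Poisson 95% intervals. Ratios have exact conditional binomial 95% intervals (scipy 1.17.1). Both cover counting error only, because 1 library per group gives no replicate and no p-value. TMM scaling used edgeR 4.0.16 in R 4.3.3. All 9 genes are named in every library. From each list the genes named were among the lowest 2 and highest 2 ratios of those with at least 20 CPM. The 10 closest genes were taken by Pearson r over 15 units of class and library. Some genes these rules select are not reported here. The scripts were tested on simulated counts with known fold changes. Promoter sequences came from RefSeq on GRCm38.p6, which was not the build of the counts.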

Additional observations from a re-analysis of the deposited data

Results flagged for a closer look

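The log2 ratio of ablated against uninjured cells had opposite signs at the 2 ages, with both ratio intervals excluding 1, in 5 cases, each from 1 library per group, so the difference was not tested. The ages also differ in time after surgery, 2 weeks at 15 weeks of age and 1 week at 18 months. In stroma, Ier2 had -0.56 at 15 weeks and 0.17 at 18 months, a difference of 0.74. In blood, Egr1 had -0.96 at 15 weeks and 1.57 at 18 months, a difference of 2.53. Blood Fosb had -0.06 at 15 weeks and 1.26 at 18 months, a difference of 1.32. The signs of both blood genes at 18 months turn when cells with another class's markers are left out, as given above. With stromal RNA subtracted instead, Fosb turned, at 67.4 CPM in aged-injury and 291 in aged. Egr1 did not turn under that step, at 146 and 73.8 CPM, so the alternatives differ for it. Blood Atf3 had 0.48 at 15 weeks and -0.76 at 18 months, a difference of -1.24, and blood Jund had 0.22 at 15 weeks and -0.34 at 18 months, a difference of -0.56. Within B lineage cells Atf3 was higher in aged-injury, at 51.1 CPM against 24.2 in aged. In erythroid-like cells it was at 13.4 against 7.78 CPM, with overlapping intervals. These directions are the opposite of that over all blood. Erythroid-like cells, low in Atf3, were 53.4% of aged-injury and 28.1% of aged blood. The stromal RNA estimate equals 97.1% of aged-injury Atf3 in B lineage and 155% in erythroid-like cells.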

How the results depend on the processing

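Counts of genes called at 2-fold, of 9, depended on the alternatives as follows. The share of all genes called under each alternative is not given here, so these counts have no background beside them. Without cells holding another class's markers, aged-injury against aged blood had 5 and aged against control endothelium 1, and the log2 ratios in aged-injury against aged blood turned to -0.33 for Fosb and -0.77 for Egr1. With carried stromal RNA subtracted, which was chosen after seeing the data, aged-injury against aged blood had 7, exhausted against control blood 3, and aged and exhausted against control endothelium 2 and 1, and Fosb turned to -2.11 in aged-injury against aged blood. With each cell at equal weight, naive against control stroma had 6 and exhausted against naive stroma 1. With each cell type at equal weight, these were 0 and 1, naive and exhausted against control blood were 1 and 0, and Fosl2 in aged-injury against aged blood turned to 1.86, over B lineage and erythroid-like cells. Naive against control blood had 1 at Leiden resolution 0.5, 1 under TMM scaling, and 1 with cluster 28 kept, chosen after seeing the data. At a 1.5-fold limit, the stromal counts were 6 for naive against control, 1 for exhausted against control, 5 for exhausted against naive and 6 for aged-injury against aged. The endothelial counts were 2 for exhausted and 2 for aged against control and 7 for aged-injury against aged, and the blood counts 1 for naive against control and 1 for exhausted against naive. The library part exceeded the class part for 5 genes over stroma and endothelium, 5 with carried RNA subtracted, and 1 over the stromal clusters, all chosen after seeing the data. Thinned to 1500 UMIs, the share of stromal cells with a Fos UMI was 83.4% in control, 52.0 in naive and 69.7 in exhausted, and 79.1 in aged and 73.0 in aged-injury, in the same order of libraries. The cause of these changes was not tested, except that fewer cells or types were used where cells were left out or types weighted.

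TMM scaling moved log2 ratios by -0.17 in naive against control stroma and in aged-injury against aged blood, where Jun turned from 0.02 to -0.16. Of 752 alternative values of single genes, 500 stayed within counting error, 248 moved beyond it and 4 reversed a call, all in aged-injury against aged blood. No paired analysis was possible because each group had 1 library.

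The data are limited by 1 library per group, which leaves group, dissociation, batch and animal inseparable, by rebuilt cell types, by doublets and free RNA that were not removed, and by few endothelial cells in control and aged and few blood cells in aged-injury. Depth limits Atf3, Fosl2 and Ier2 most, since their UMIs are few.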

Other observations

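Some cell types had at least 50 cells in 1 library only, so their levels can be set only beside other types of that library. In the exhausted library, 72 osteoclast-like cells, the bone-resorbing cells of the myeloid lineage, had 3467 CPM (95% interval 3386 to 3549) of Fos and 605 CPM (95% interval 571 to 639.7) of Fosl2. Macrophage-like cells of that library had 2929 CPM of Fos and 252 of Fosl2. The same osteoclast-like cells had 39.1 CPM (95% interval 30.9 to 48.7) of Egr1 and 6.92 CPM (95% interval 3.79 to 11.6) of Atf3, where macrophage-like cells had 505 and 675. Fosb was at 557 CPM (95% interval 525 to 590.4) in osteoclast-like and 1904 CPM in macrophage-like cells. Within 1 library, Fosl2 was thus higher in osteoclast-like cells and Fosb, Egr1 and Atf3 lower. T or NK-like cells of the exhausted library, 61 in number, had 1207 CPM (95% interval 1095 to 1327) of Junb and 2653 CPM (95% interval 2487 to 2829) of Jund.

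In the aged-injury library, 502 osteoblast-like cells, the cells that lay down bone matrix, had 1761 CPM of Fos, 717 of Egr1 and 253 of Atf3. Reticular-like cells of that library had 6909.8, 4275 and 127 CPM. Fos and Egr1 were thus lower and Atf3 higher in osteoblast-like cells. Chondrocyte-like cells, 230 in number, had 2451 CPM of Fos and 149.6 of Atf3.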
